A study of Mus musculus with 6 samples.

Results

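The enzymes of glycolysis and of the pentose phosphate pathway were measured by RNA sequencing in endothelial cells taken from the brains of C57BL/6 mice at 8 weeks of age. The group was a fixed list of 33 gene symbols out of 23329 in the count files. It held 25 genes of glycolysis and its side branches and 8 genes of the pentose phosphate pathway. The cells were sorted with magnetic beads (MACS) into lysis buffer and were not cultured. The 3 GLUT1EC-/- libraries came from mice with a knockout of Slc2a1 in endothelial cells, and the 3 WT libraries came from littermates. Slc2a1 encodes GLUT1, the glucose carrier that supplies the first substrate of both pathways. The Cre driver, the deleted exons and the alleles carried by the WT littermates are not given in the sources used here. The design asks how endothelial transcripts differ when these cells lack GLUT1, and the isoform that carries each step was read from the same counts.

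Glycolysis turns glucose into pyruvate in the cytosol, with an early phase that spends ATP and a later phase that returns it. The pentose phosphate pathway leaves from glucose 6-phosphate. Its oxidative branch makes NADPH, and its non-oxidative branch exchanges sugar phosphates with glycolysis and supplies ribose 5-phosphate for nucleotides. Endothelial cells are known to rely strongly on glycolysis for ATP, and most steps can be carried by several isoforms with different kinetics and tissue patterns.

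All 33 genes had enough counts to be tested, and none passed the test between GLUT1EC-/- and WT libraries. The test was edgeR's quasi-likelihood test with p-values adjusted over 14838 genes by Benjamini and Hochberg's method, and of these genes 1.31% passed at an adjusted p under 0.05, 0.863% higher and 0.445% lower in GLUT1EC-/-. That share rests on single libraries, with 0 genes passing without WT 1 and 862 without GLUT1EC-/- 2. The unadjusted p was below 0.05 for 5 of the 33 (15.2%), against 14.5% of all genes tested. DESeq2 and limma-voom passed 0 of the 33 as well. The median log2 fold change of the 33 was -0.05, against 0.01 over all genes tested. The enzyme set took 0.342% to 0.437% of the raw counts in GLUT1EC-/- libraries and 0.407% to 0.445% in WT libraries.

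Total counts were 35323299 to 37868681 in GLUT1EC-/- libraries and 31874662 to 39424384 in WT libraries. The 10 endothelial markers, among them Flt1 and Cldn5, summed to 11420 to 13080 CPM in GLUT1EC-/- libraries and to 12780 to 13360 CPM in WT libraries, where CPM are counts scaled to a common library size with TMM factors. Markers of other brain cells were present, and some of their sums did not overlap between the groups. Microglia markers summed to 779 to 1614 CPM in GLUT1EC-/- and 507 to 602 CPM in WT, and fibroblast markers to 956 to 1833 CPM in GLUT1EC-/- and 295 to 660 CPM in WT. Oligodendrocyte markers summed to 1248 to 3266 CPM in GLUT1EC-/- and 766 to 799 CPM in WT, where Mal set the difference. Apod took most of the fibroblast sum, but the groups did not overlap without it either. The other 8 fibroblast markers summed to 202, 160.5 and 377 CPM in GLUT1EC-/- 1 to 3, against 89.9, 105 and 97.7 CPM in WT 1 to 3. The test called 3 of 12 microglia markers and 1 of 9 fibroblast markers higher, and 1 of 9 oligodendrocyte markers lower. Markers of dividing cells summed to 27.3 to 102 CPM in GLUT1EC-/- and 10.9 to 15.8 CPM in WT, with 1 of 9 called higher. The part of these cells in the enzyme levels was not tested. Choroid plexus markers summed to 2917 to 5402 CPM in GLUT1EC-/- and 3614 to 6410 CPM in WT. In such bulk samples, fewer cells of a type and less RNA per cell cannot be told apart. Slc2a1 itself was at 3735, 5414 and 3893 CPM in GLUT1EC-/- 1 to 3, against 3984, 4479 and 4172 CPM in WT 1 to 3, so the targeted gene's count overlapped between the groups, and all directions below are between libraries labelled GLUT1EC-/- and WT. GLUT1EC-/- 2 had a TMM factor of 0.884, against 1.01 to 1.05 in the other 5 libraries.

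Levels of different genes were compared as CPM per kilobase of annotated exon. The most abundant transcripts per length were those of Aldoa, Pkm, Gapdh and Ldha. Pkm, the muscle-type pyruvate kinase that forms the last ATP of the pathway, was at 164 ± 19.1 CPM per kilobase in GLUT1EC-/- and 157 ± 10.8 in WT (SD, n = 3 each). Aldoa, the aldolase that splits fructose 1,6-bisphosphate, was at 153 ± 26.4 CPM per kilobase in GLUT1EC-/- and 178 ± 17.4 in WT (SD, n = 3 each). The spreads of Pkm and Aldoa overlap, so their order is not fixed. Gapdh was at 133 ± 13.3 CPM per kilobase in GLUT1EC-/- and 107 ± 8.21 in WT, where it did not overlap with Pkm. The order of these genes also depends on the length assigned. Gapdh has 4133 bases of exon but a principal annotated transcript of 1420 bases. Gpi1, which follows hexokinase, and Tpi1, which interconverts the triose phosphates, came next, and Taldo1 (transaldolase) led the pentose phosphate genes with 38.5 ± 11.1 CPM per kilobase in GLUT1EC-/- and 44.8 ± 0.570 in WT (SD, n = 3 each). By this length Rpia, the isomerase that yields ribose 5-phosphate, was the lowest of that pathway in GLUT1EC-/-. It was at 2.26 ± 0.456 CPM per kilobase in GLUT1EC-/- and 3.47 ± 0.371 in WT (SD, n = 3 each). H6pd was level with it in WT, at 4.37 ± 0.769 in GLUT1EC-/- and 3.33 ± 0.216 in WT. This order depends on the length assigned and is not fixed. Rpia has 5359 bases of exon but a principal annotated transcript of 1829 bases, against 5236 and 4571 bases for H6pd.

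**Figure D1:**
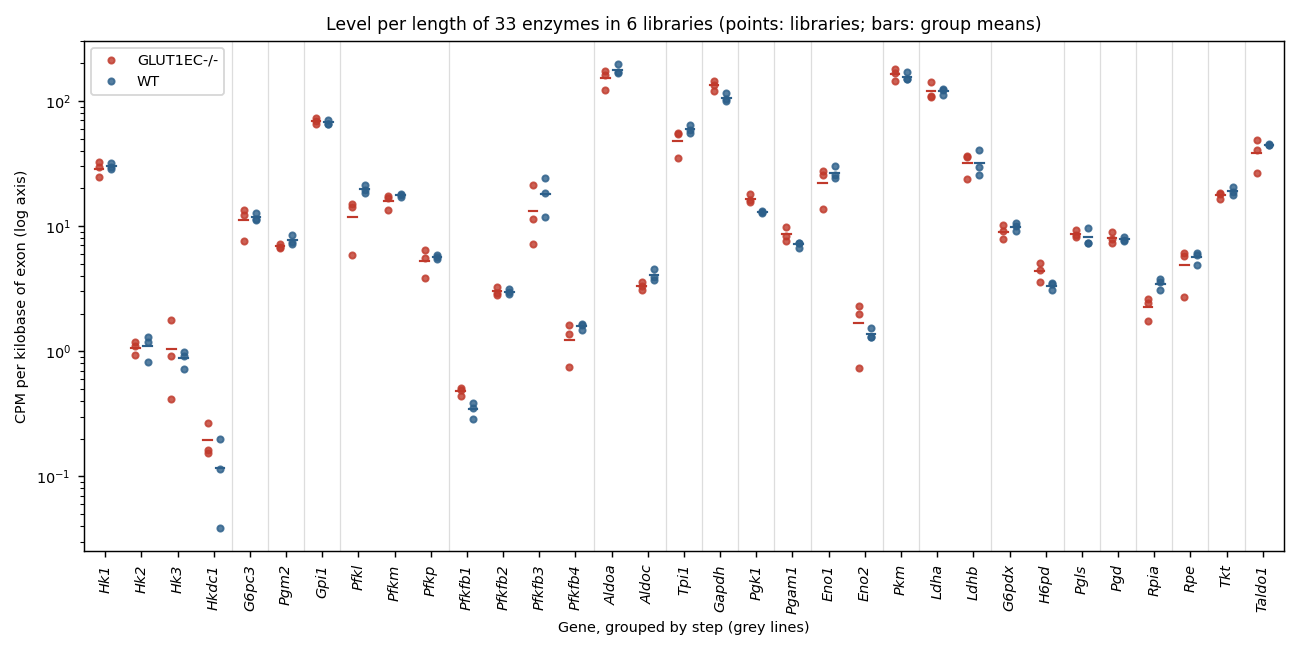
Level of each of the 33 enzymes in CPM per kilobase of exon on a log axis, with a point for each library and a bar for the mean of the 3 libraries of a group; grey lines separate the steps. Hk1, Aldoa and Ldha stand above the other isoforms drawn for their steps in all 6 libraries, while Pfkl and Pfkm lie close together.

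Of 21 steps, 14 had more than 1 listed gene once paralogs outside the 33 were added. In 13 of these 14 the same isoform was highest per length in all 6 libraries and under all 6 measures of length that were tried. For GAPDH, phosphoglycerate kinase, transketolase and pyruvate kinase no length could alter this. The paralogs of these steps had no counts, or 2 in all for Pklr. The exception was 6-phosphofructokinase, described below. No library held a count for 5 paralogs, Gapdhs, Pgk2, G6pd2, Tktl1 and Tktl2. A count of 0 allows up to 0.0739 to 0.0928 CPM per library, a limit set by 3 counts that covers counting error only.

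Among hexokinases, which trap glucose in the cell as glucose 6-phosphate, Hk1 dominated. Its share of the step, computed from CPM per kilobase, was 92.7% ± 1.48 in GLUT1EC-/- and 93.4% ± 1.13 in WT (SD, n = 3 each). Hk1 was at 253, 211 and 275 CPM in GLUT1EC-/- 1 to 3, against 246, 251 and 270.5 CPM in WT 1 to 3, and the groups overlap. Hk2, the isoform that insulin and hypoxia induce in other tissues, was 22.5 to 38.4 times lower than Hk1 per kilobase of exon across the 6 libraries, and 46.0 to 78.6 times lower with the principal transcript as length. Its share was 3.45% ± 0.280 in GLUT1EC-/- and 3.46% ± 0.875 in WT. Hk3, a hexokinase best known from myeloid cells, spread widely in GLUT1EC-/-, with 3.37, 1.52 and 6.52 CPM in GLUT1EC-/- 1 to 3 against 2.66, 3.62 and 3.40 CPM in WT 1 to 3. GLUT1EC-/- 3, which had the highest Hk3, also had the highest sum of macrophage and monocyte markers, and GLUT1EC-/- 2, which had the lowest Hk3, the lowest. Over the 10 markers these sums were 254, 238.7 and 380 CPM in GLUT1EC-/- 1 to 3, against 261, 354 and 308 CPM in WT 1 to 3. Neutrophil markers went the other way in GLUT1EC-/-, with sums of 4.438, 10.01 and 1.435 CPM in GLUT1EC-/- 1 to 3. In WT 1 to 3 they summed to 7.952, 5.726 and 9.657 CPM. The microglia sum was also highest in GLUT1EC-/- 3, at 1614 CPM. In GLUT1EC-/- 2 it was 779 CPM, above the 507 to 602 CPM of WT, although Hk3 was lowest there. The part of these markers in the Hk3 count was not tested. Hkdc1 was low, with at most 52 counts in a library, at 0.993 ± 0.317 CPM in GLUT1EC-/- and 0.601 ± 0.412 CPM in WT. Its log2 fold change of 0.74 (SE 0.58, adjusted p = 0.602 by edgeR) was the highest of the 33 and had the widest interval.

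Next to this step, G6pc3, the broadly expressed glucose-6-phosphatase of the endoplasmic reticulum, made up 89.5% ± 4.96 of that activity's transcripts per length in GLUT1EC-/- and 95.7% ± 1.22 in WT (SD, n = 3 each). G6pc3 itself was at 24.8 ± 6.92 CPM in GLUT1EC-/- and 26.2 ± 2.11 CPM in WT, and its low paralogs were higher by mean in GLUT1EC-/-, G6pc at 1.06 ± 0.503 against 0.491 ± 0.122 CPM and G6pc2 at 1.51 ± 0.844 against 0.633 ± 0.224 CPM, each in GLUT1EC-/- against WT. Phosphoglucomutase links glycogen to glucose 6-phosphate. The row named Pgm2 was at 18.6, 17.7 and 17.5 CPM in GLUT1EC-/- 1 to 3, against 18.7, 19.2 and 22.1 CPM in WT 1 to 3, lower in every GLUT1EC-/- library by little (log2 fold change -0.16, SE 0.14, adjusted p = 0.645 by edgeR). RefSeq gives Pgm1 and Pgm2 as older names of each other, so which of these enzymes either row counts is not settled by the files. The row named Pgm1 was higher than Pgm2 in all 6 libraries and made up 68.1% ± 7.35 of the step per length in GLUT1EC-/- and 64.4% ± 0.887 in WT. The value of 76.6% in GLUT1EC-/- 2 carries the difference. These lengths were assigned by name. With no length the share was 56.9% ± 10.4 in GLUT1EC-/- and 54.9% ± 1.4 in WT. Pgm2l1, which makes the cofactor glucose 1,6-bisphosphate, made up 10.2% ± 3.85 in GLUT1EC-/- and 8.93% ± 1.81 in WT. Gpi1, the isomerase with a single gene, was among the steadiest of the set, at 446, 472 and 425 CPM in GLUT1EC-/- 1 to 3 and 423, 422 and 458 CPM in WT 1 to 3. Its fold was 1.03 (95% interval 0.846 to 1.26).

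6-phosphofructokinase, the committed step of glycolysis, was the step where no isoform dominated. Pfkl, the liver-type subunit, was lower in every GLUT1EC-/- library, at 99.5, 39.4 and 95.7 CPM in GLUT1EC-/- 1 to 3 against 142, 130 and 124 CPM in WT 1 to 3. The groups do not overlap, as was also true of 22.9% of all genes tested, and the log2 fold change of -0.76 (SE 0.31, adjusted p = 0.315 by edgeR) did not pass. Much of its size came from GLUT1EC-/- 2, where Pfkl was lowest. Without that library the log2 fold change was -0.44 and passed (adjusted p = 0.0433 by edgeR), in a fit in which 5.73% of all genes passed against 1.31% with all libraries. Within the animal numbers in the 200s of the labels Pfkl differed by -0.45, and within the 500s by -1.01, on the scale of log2(CPM + 0.5). GLUT1EC-/- 1 is the only knockout library in the 200s, and WT 3 the only WT library in the 500s. For genes whose groups do not overlap, the sign within each series is fixed beforehand, so only the size of these differences is described. Pfkm, the muscle-type subunit, was at 55.5, 44.9 and 58.2 CPM in GLUT1EC-/- 1 to 3 against 56.9, 59.1 and 60.2 CPM in WT 1 to 3. Pfkp, the platelet-type subunit, was at 74.8, 51.5 and 85.8 CPM in GLUT1EC-/- 1 to 3 against 73.6, 75.4 and 78.1 CPM in WT 1 to 3.

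Per length, Pfkl made up 34.4% ± 7.86 of the step in GLUT1EC-/- and 46.0% ± 2.47 in WT, and Pfkm 49.5% ± 7.39 in GLUT1EC-/- and 40.9% ± 1.88 in WT (SD, n = 3 each). Pfkp made up 16.1% ± 0.946 in GLUT1EC-/- and 13.1% ± 0.603 in WT. The ratio of Pfkl to Pfkm per length was 0.897, 0.438 and 0.822 in GLUT1EC-/- 1 to 3 and 1.25, 1.10 and 1.03 in WT 1 to 3. Pfkm was thus the highest isoform in the 3 GLUT1EC-/- libraries and Pfkl in the 3 WT libraries. Which isoform leads depends on the length assigned to the genes. With the longest or the principal annotated transcript Pfkl led in 5 of 6 libraries, all but GLUT1EC-/- 2. Lengths counted in windows found once put Pfkm first in 5 of 6 over all transcripts of the gene, but Pfkl in 5 of 6 over the principal transcript. With no length Pfkp was at 35.4% in GLUT1EC-/- and 28.4% in WT, above Pfkm, and led in GLUT1EC-/- 2. The share of Pfkl was lower in each GLUT1EC-/- library than in any WT library under all 6 measures of length. The ratios of Pfkl to Pfkm and to Pfkp were both lower in each GLUT1EC-/- library than in any WT library. A length scales a gene alike in all libraries, so this order was fixed for any length and the measures add no support. No test was made of shares.

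**Figure D2:**
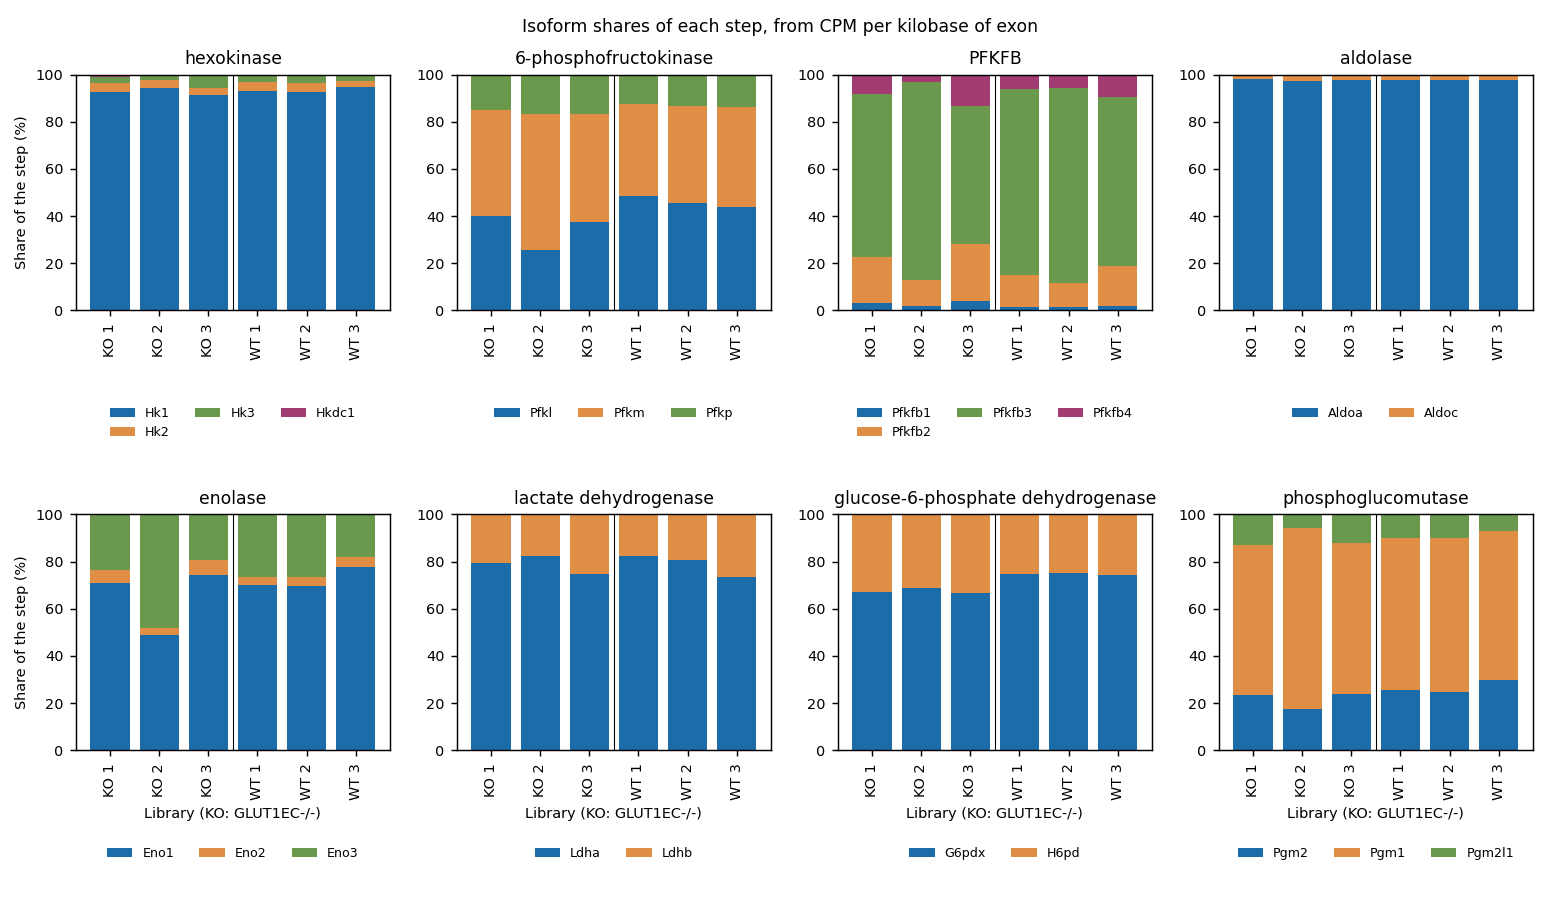
Stacked shares of the isoforms of 8 steps in percent, from CPM per kilobase of exon, with GLUT1EC-/- libraries (KO 1 to 3) left of WT libraries; isoforms under 0.2% in every library are not drawn. Pfkl takes 25.4% to 40.2% of the 6-phosphofructokinase step in GLUT1EC-/- and 43.7% to 48.6% in WT, and H6pd takes 31.2% to 33.2% of the glucose-6-phosphate dehydrogenase step in GLUT1EC-/- and 24.9% to 25.5% in WT.

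The 4 Pfkfb genes encode bifunctional enzymes that make and remove fructose 2,6-bisphosphate, the activator of 6-phosphofructokinase. Pfkfb3, the isoform with the strongest kinase activity and a known driver of endothelial glycolysis, was highest in all 6 libraries, with 70.6% ± 12.8 of the step per length in GLUT1EC-/- and 77.7% ± 5.81 in WT (SD, n = 3 each). Its counts spread widely in both groups, at 86.4, 161 and 54.0 CPM in GLUT1EC-/- 1 to 3 against 139, 184 and 90.1 CPM in WT 1 to 3. The log2 fold change was -0.45 with a 95% interval of -1.36 to 0.45 (adjusted p = 0.641 by edgeR), and it was -0.98 without GLUT1EC-/- 2 (adjusted p = 0.203 by edgeR). Pfkfb2, the heart-type isoform, was the steadiest of the 4, at 21.8 ± 1.72 CPM in GLUT1EC-/- and 21.7 ± 1.06 CPM in WT. Pfkfb4 was at 6.63, 3.67 and 7.82 CPM in GLUT1EC-/- 1 to 3 against 7.21, 7.98 and 7.91 CPM in WT 1 to 3. Pfkfb1, the liver-type isoform on chromosome X, was the lowest of the step and was higher in every GLUT1EC-/- library, at 2.04, 1.76 and 1.95 CPM in GLUT1EC-/- 1 to 3 against 1.42, 1.55 and 1.16 CPM in WT 1 to 3 (log2 fold change 0.48, SE 0.29, adjusted p = 0.498 by edgeR).

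Aldoa made up 97.8% ± 0.454 of aldolase transcripts per length in GLUT1EC-/- and 97.8% ± 0.0874 in WT (SD, n = 3 each). It was at 505.4, 358 and 470.5 CPM in GLUT1EC-/- 1 to 3 against 484, 493 and 576 CPM in WT 1 to 3. Aldoc, the aldolase of brain, best known from astrocytes and Purkinje cells, was 36.9 to 56.8 times lower than Aldoa per length. It was lower in every GLUT1EC-/- library, at 9.97, 10.9 and 11.7 CPM in GLUT1EC-/- 1 to 3 against 12.9, 12.1 and 14.8 CPM in WT 1 to 3 (log2 fold change -0.29, SE 0.16, adjusted p = 0.470 by edgeR). The 9 astrocyte markers, led by Gja1 and Fgfr3, went the other way by sum, with 191, 236 and 224 CPM in GLUT1EC-/- 1 to 3 against 137, 160 and 126 CPM in WT 1 to 3, and 1 of them passed as higher. Gfap was part of that gap: without it the sums were 154, 199.5 and 164 CPM in GLUT1EC-/- 1 to 3 against 131, 154 and 121 CPM in WT 1 to 3. Slc1a2 was lower in every GLUT1EC-/- library, at 2.68 to 6.30 CPM in GLUT1EC-/- against 8.36 to 9.07 CPM in WT. Their part in the Aldoc count was not tested. Tpi1 was lower in every GLUT1EC-/- library, at 149, 96.1 and 152 CPM in GLUT1EC-/- 1 to 3 against 162, 153 and 177 CPM in WT 1 to 3. GLUT1EC-/- 3 lay within 1 CPM of WT 2, and the log2 fold change was -0.31 (SE 0.19, adjusted p = 0.5001 by edgeR) and -0.13 without GLUT1EC-/- 2.

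The 3 genes that follow in the pathway, Gapdh, Pgk1 and Pgam1, were each higher in all GLUT1EC-/- libraries. Gapdh, which oxidizes glyceraldehyde 3-phosphate and makes NADH, was at 557, 602 and 492 CPM in GLUT1EC-/- 1 to 3 against 416, 426 and 479 CPM in WT 1 to 3. Pgk1, which forms the first ATP of the pathway, was at 40.2, 35.0 and 36.1 CPM in GLUT1EC-/- 1 to 3 against 29.6, 28.5 and 28.8 CPM in WT 1 to 3. Pgam1, the mutase that moves the phosphate for enolase, was at 16.6, 15.0 and 19.6 CPM in GLUT1EC-/- 1 to 3 against 14.6, 14.6 and 13.3 CPM in WT 1 to 3. Pgam1 made up 95.6% ± 0.336 of its step per length in GLUT1EC-/- and 90.8% ± 4.77 in WT (SD, n = 3 each), beside the muscle form Pgam2 at 0.338 ± 0.0686 CPM in GLUT1EC-/- and 0.610 ± 0.314 CPM in WT. The gaps between the groups are narrow for Gapdh and Pgam1 and wider for Pgk1. The log2 fold change was 0.32 (SE 0.14, adjusted p = 0.340 by edgeR) for Gapdh, 0.36 (SE 0.12, adjusted p = 0.233 by edgeR) for Pgk1 and 0.27 (SE 0.16, adjusted p = 0.490 by edgeR) for Pgam1, so none passed. Within the animal numbers in the 200s and the 500s the log2 difference was 0.40 and 0.18 for Gapdh, 0.46 and 0.30 for Pgk1, and 0.18 and 0.36 for Pgam1. The sign of these differences follows from the lack of overlap between the groups. Pgk1 lies on chromosome X, and the libraries differed in sex by their counts of Xist and of the Y-linked Ddx3y, which was at 94.1 CPM in GLUT1EC-/- 3 and 83.2 CPM in WT 3 and at most 0.124 CPM in the other 4. With sex as a term none of the 33 passed either.

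Part of the counts of these genes is hard to place, as is that of Eno1. Of the 100-base windows of the principal annotated transcript, as long as the reads, 78.0% for Gapdh, 67.0% for Pgk1, 59.0% for Eno1 and 39.7% for Pgam1 occurred without mismatch in a transcript of another annotated gene, mostly processed pseudogenes. Each of the other genes was at 23.9% or less, and 20 had none. Windows of Gapdh were found in 82 pseudogenes. How reads with several matches were counted is not given in the sources used here, and the part of these repeats in the low count of Pgk1 or in the group differences was not tested. As an example, the stretch of Pgk1 (chrX:106187100-106203699, plus strand, GRCm38) from base 2 to base 101 of its coding sequence, read from GENCODE M21, is shown because it also stands in Gm5537 and Pgk1-rs7.
Pgk1 coding 2 to 101: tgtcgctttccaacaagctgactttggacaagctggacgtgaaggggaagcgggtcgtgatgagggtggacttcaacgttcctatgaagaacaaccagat

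The promoters of these 3 genes are shown with those of Pfkl and Rpia, the 2 genes of the 33 with the most negative fold changes, a choice made after the values were seen. Each runs from 250 bases before to 50 bases after the start and is given 5′ to 3′ on the gene's strand, from RefSeq on GRCm38.p6. The windows are chr6:125165724-125166023 (minus strand) for Gapdh, chrX:106186850-106187149 (plus) for Pgk1, chr19:41911621-41911920 (plus) for Pgam1, chr10:78009758-78010057 (minus) for Pfkl and chr6:70792126-70792425 (minus) for Rpia. Capitals mark ACGTG on either strand, a form of the core of the hypoxia response element. The core may also read GCGTG, which was neither marked nor counted. On either strand GCGTG stands in the windows of Gapdh, Pgam1, Pfkl and Rpia. The marked form ACGTG occurs 2 times in the Pgk1 window, 1 time each in those of Gapdh and Pgam1, and in neither of those of Pfkl and Rpia. Hkdc1, Pfkfb1 and H6pd had more positive log2 fold changes (0.74, 0.48 and 0.39) than Gapdh, Pgk1 and Pgam1, and their promoters are not shown. The windows shown therefore do not compare higher with lower genes.
Gapdh: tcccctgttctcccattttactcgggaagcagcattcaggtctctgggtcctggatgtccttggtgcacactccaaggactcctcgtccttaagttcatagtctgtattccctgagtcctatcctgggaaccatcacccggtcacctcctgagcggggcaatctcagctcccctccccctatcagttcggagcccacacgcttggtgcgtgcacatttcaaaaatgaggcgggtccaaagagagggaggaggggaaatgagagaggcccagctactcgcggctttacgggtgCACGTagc
Pgk1: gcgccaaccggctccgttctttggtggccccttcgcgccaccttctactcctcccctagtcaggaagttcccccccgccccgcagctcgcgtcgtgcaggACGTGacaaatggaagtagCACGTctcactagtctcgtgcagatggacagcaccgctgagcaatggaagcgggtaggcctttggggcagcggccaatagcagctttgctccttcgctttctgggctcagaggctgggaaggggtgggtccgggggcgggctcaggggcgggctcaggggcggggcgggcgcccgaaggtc
Pgam1: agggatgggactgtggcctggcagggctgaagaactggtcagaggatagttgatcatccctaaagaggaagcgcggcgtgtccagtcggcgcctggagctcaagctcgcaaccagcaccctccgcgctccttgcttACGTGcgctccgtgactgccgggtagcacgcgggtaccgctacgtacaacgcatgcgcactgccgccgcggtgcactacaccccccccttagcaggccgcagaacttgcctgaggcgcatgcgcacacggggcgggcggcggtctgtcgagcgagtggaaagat
Pfkl: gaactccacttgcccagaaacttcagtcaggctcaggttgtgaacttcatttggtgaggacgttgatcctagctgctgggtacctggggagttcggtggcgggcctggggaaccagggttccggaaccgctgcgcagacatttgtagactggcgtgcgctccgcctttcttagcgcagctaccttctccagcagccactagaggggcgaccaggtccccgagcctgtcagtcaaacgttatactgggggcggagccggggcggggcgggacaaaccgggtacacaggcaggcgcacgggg
Rpia: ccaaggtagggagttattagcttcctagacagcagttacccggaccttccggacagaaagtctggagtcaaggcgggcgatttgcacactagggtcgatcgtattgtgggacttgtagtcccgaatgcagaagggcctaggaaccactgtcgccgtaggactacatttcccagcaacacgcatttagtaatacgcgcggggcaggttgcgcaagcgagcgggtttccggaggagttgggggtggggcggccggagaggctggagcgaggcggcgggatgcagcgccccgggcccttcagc
Over all 33 genes, 20 of 51 promoter windows (39.2%) held ACGTG, against 19.6% of 32851 RefSeq promoter windows of the same length. The palindrome CACGTG, which contains it, was in 5 of 51 windows (9.80%) and in 7.15% of all. A match is a description of letters only.

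Enolase forms phosphoenolpyruvate. Eno1, the ubiquitous alpha isoform, was at 139, 73.6 and 147 CPM in GLUT1EC-/- 1 to 3 against 138, 130 and 163 CPM in WT 1 to 3. The low value of GLUT1EC-/- 2 set the log2 fold change of -0.26 (SE 0.25, adjusted p = 0.672 by edgeR), which was -0.01 without that library. A row named Gm5506, listed by RefSeq as Eno1b, followed Eno1 at 1.05 to 1.16 times its count in all 6 libraries. How reads that match both were counted is not given, and the 2 rows were not separated here. Eno3, the muscle isoform, was the next of the step, at 14.8, 23.4 and 12.4 CPM in GLUT1EC-/- 1 to 3 against 16.8, 16.0 and 12.3 CPM in WT 1 to 3. In GLUT1EC-/- 2 Eno1 and Eno3 had nearly equal shares per kilobase of all exons, 49.1% and 48.3%, but 69.2% and 28.5% with the principal transcript as length. Eno2, the neuronal isoform, was at 9.29, 3.47 and 10.8 CPM in GLUT1EC-/- 1 to 3 against 6.16, 6.08 and 7.22 CPM in WT 1 to 3, and was 12 to 19.7 times lower than Eno1 per length. The 11 neuronal markers summed to 68.8, 69.6 and 124 CPM in GLUT1EC-/- 1 to 3 and 108, 101 and 114 CPM in WT 1 to 3. Stmn2 alone made up most of each sum, at 51.5, 49.9 and 108 CPM in GLUT1EC-/- 1 to 3 and 87.7, 82.5 and 96.6 CPM in WT 1 to 3. The pattern of the sums is thus mainly that of a single gene. The part of these markers in the Eno2 count was not tested.

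Pkm, counted under its older symbol Pkm2, was at 831, 906 and 716 CPM in GLUT1EC-/- 1 to 3 against 755, 752 and 847 CPM in WT 1 to 3, and the fold was 1.04, with 0.830 to 1.31 as its 95% interval. Gene counts do not separate its splice forms. Pklr, the liver and red cell pyruvate kinase, had 2 counts in all. Lactate dehydrogenase closes the pathway by turning pyruvate into lactate and back. Ldha, whose subunit favours lactate formation, was at 467, 365 and 355 CPM in GLUT1EC-/- 1 to 3 against 404, 414 and 372 CPM in WT 1 to 3. Ldhb, whose subunit favours lactate use, was at 57.5, 37.1 and 56.3 CPM in GLUT1EC-/- 1 to 3 against 40.4, 46.3 and 63.8 CPM in WT 1 to 3. Ldha exceeded Ldhb per length by 2.76 to 4.73 times over the 6 libraries, and its share was 78.8% ± 3.75 in GLUT1EC-/- and 78.9% ± 4.84 in WT (SD, n = 3 each). The fold of Ldha was 0.997 (95% interval 0.786 to 1.27), and that of Ldhb 1.002 with 0.700 to 1.43.

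In the oxidative branch of the pentose phosphate pathway, G6pdx, the X-linked cytosolic glucose-6-phosphate dehydrogenase, was at 28.1, 24.1 and 31.4 CPM in GLUT1EC-/- 1 to 3 against 27.9, 32.5 and 30.7 CPM in WT 1 to 3. H6pd, its counterpart in the lumen of the endoplasmic reticulum, was higher in every GLUT1EC-/- library, at 23.5, 18.6 and 26.6 CPM in GLUT1EC-/- 1 to 3 against 16.2, 18.3 and 17.9 CPM in WT 1 to 3. GLUT1EC-/- 2 exceeded the highest WT library by little. The log2 fold change of H6pd was 0.39 (SE 0.17, adjusted p = 0.343 by edgeR). Without GLUT1EC-/- 2 it was 0.51 and passed (adjusted p = 0.0387 by edgeR). Differences within the 200s and the 500s were 0.44 and 0.31, with a sign that follows from the lack of overlap. G6pdx exceeded H6pd per length by 2.03, 2.20 and 2.01 times in GLUT1EC-/- 1 to 3 and by 2.93, 3.01 and 2.92 times in WT 1 to 3, and here the 3 values of each group lay closer together than the groups did. Pgls, the lactonase, and Pgd, which makes the second NADPH, overlapped between the groups, at 32.6 ± 2.19 and 52.0 ± 5.16 CPM in GLUT1EC-/- against 30.6 ± 5.23 and 50.7 ± 1.77 CPM in WT (SD, n = 3 each). The fold of Pgd was 1.02 with a 95% interval of 0.838 to 1.25.

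In the non-oxidative branch, Rpia had the lowest adjusted p of the 33. It was lower in every GLUT1EC-/- library, at 13.9, 9.35 and 13.1 CPM in GLUT1EC-/- 1 to 3 against 20.3, 19.1 and 16.4 CPM in WT 1 to 3. The log2 fold change was -0.62 (SE 0.19, adjusted p = 0.194 by edgeR), which is a fold of 0.652 (95% interval 0.479 to 0.888). Without GLUT1EC-/- 2 the log2 fold change was -0.47 (adjusted p = 0.0880 by edgeR). Differences within the 200s and the 500s were -0.48 and -0.55, with a sign that follows from the lack of overlap. Rpe, the epimerase that acts on the same substrate, was at 18.1, 8.37 and 18.9 CPM in GLUT1EC-/- 1 to 3 against 18.9, 18.2 and 15.3 CPM in WT 1 to 3, with GLUT1EC-/- 2 alone below the others. Tkt, transketolase, was at 130 ± 7.04 CPM in GLUT1EC-/- and 139 ± 10.9 CPM in WT (SD, n = 3 each), and was the sole transketolase gene with counts. Taldo1 was at 87.9, 57.6 and 105 CPM in GLUT1EC-/- 1 to 3 against 98.7, 96.5 and 96.7 CPM in WT 1 to 3, with GLUT1EC-/- 2 again the lowest.

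Over the whole set, 14 genes were higher and 19 lower in GLUT1EC-/- by value. The groups did not overlap for 10 of the 33, 5 higher (Pfkfb1, Gapdh, Pgk1, Pgam1 and H6pd) and 5 lower (Pgm2, Pfkl, Aldoc, Tpi1 and Rpia), against 11.7% of all genes tested higher and 11.2% lower without overlap. The standard errors of the log2 fold changes were 0.12 to 0.58 with a median of 0.17. The 95% interval reached a 2-fold change in either direction for 7 of the 33, so a change of that size lay outside the interval of the others.

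**Figure D3:**
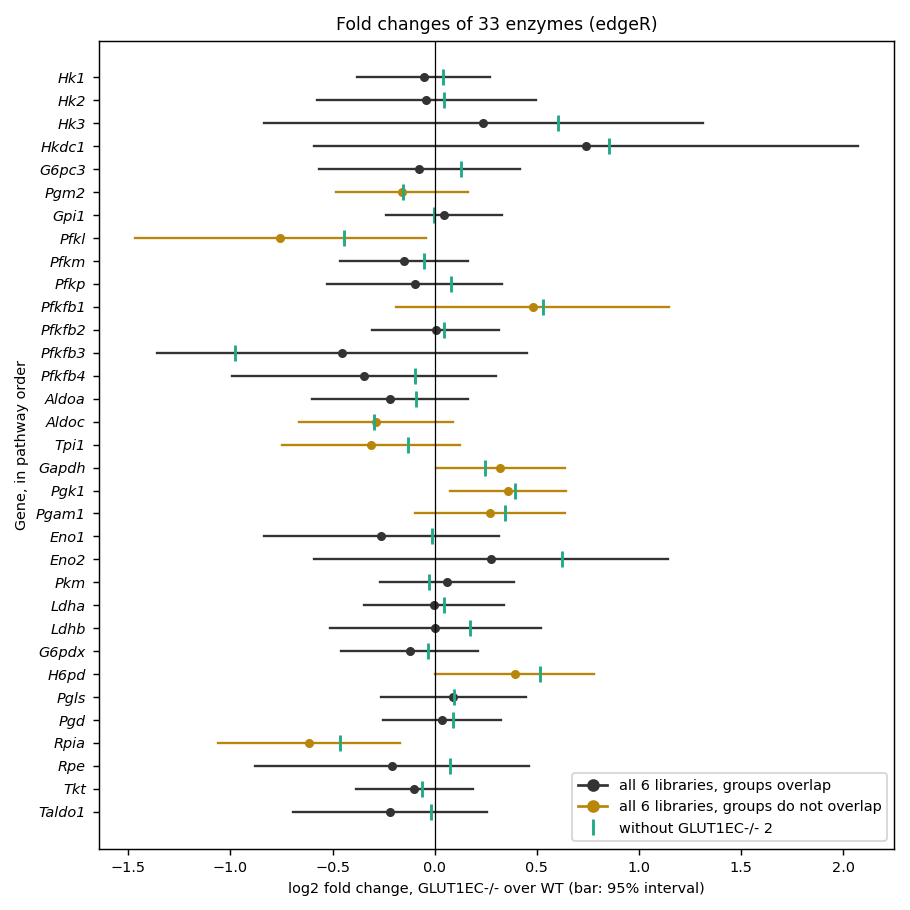
Log2 fold change of GLUT1EC-/- over WT for each of the 33 enzymes, with 95% intervals as bars; gold marks the 10 genes whose groups do not overlap and green ticks the value without GLUT1EC-/- 2. The intervals of Rpia, Pfkl, Gapdh, Pgk1 and H6pd leave out 0 before adjustment, and the tick of Pfkfb3 lies farthest from its point, at -0.98 against -0.45.

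GLUT1EC-/- 2 gave the lowest level of the 6 libraries for 19 of the 33 enzymes (57.6%), against 34.8% of all genes tested, and the highest for 3 (9.09%), against 33.3% of all genes tested. Its median deviation from the WT mean over the 33 was -0.27 on the scale of log2(CPM + 0.5), against -0.01 over all genes. The same median was 0.02 in GLUT1EC-/- 1 and 0.05 in GLUT1EC-/- 3. Pfkl, Rpe, Pfkfb4, Rpia and Eno1 were at their lowest there, while Gapdh, Pkm and Gpi1 were at their highest. This library also had the highest Mal and Apod, which made up most of its oligodendrocyte and fibroblast marker sums, while the other 9 oligodendrocyte markers summed to 365 CPM there, within the 324 to 443 CPM of the other libraries. It had the lowest sums of choroid plexus and erythroid markers, and the part of these cells in its enzyme levels was not tested. Without it the median log2 fold change of the 33 was 0.04, against -0.05 with all libraries.

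**Figure D4:**
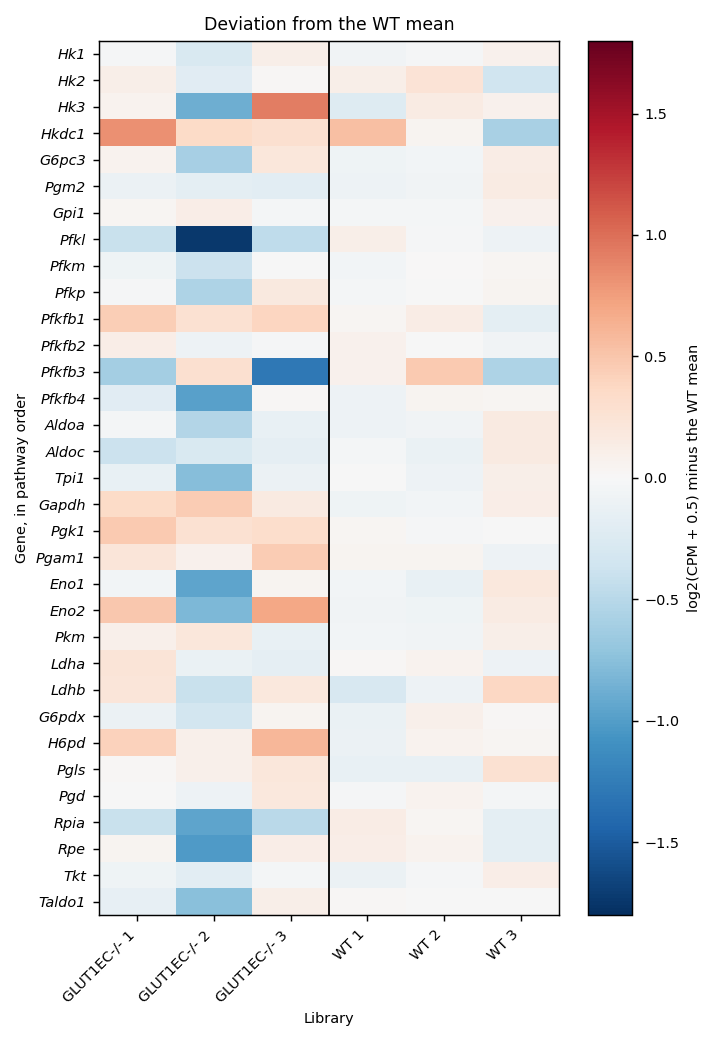
Heat map of log2(CPM + 0.5) minus the WT mean for each enzyme (rows, in pathway order) and library (columns, GLUT1EC-/- left of WT). The column of GLUT1EC-/- 2 is blue for most rows and darkest for Pfkl, and Gapdh, Pgk1 and Pgam1 form a pale red block in the 3 GLUT1EC-/- libraries.

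Genes around these pathways gave no call either. Of 36 neighbours, which carry pyruvate oxidation, the glycerol phosphate and malate shuttles, gluconeogenesis and the uses of ribose phosphate, 33 were tested and 0 passed in either direction (edgeR, adjusted p under 0.05), with 5 at an unadjusted p under 0.05. That is 15.2% of them, against 14.5% of all genes tested. By value 22 were higher and 11 lower in GLUT1EC-/-, with a median log2 fold change of 0.18, against 7647 higher, 7191 lower and a median of 0.01 over all genes tested. The groups did not overlap for 7 higher and 1 lower (24.2%), against 22.9% of all genes tested. The most abundant was Gpd2, the mitochondrial glycerol-3-phosphate dehydrogenase that takes up electrons from cytosolic NADH, at 191 ± 34.4 CPM in GLUT1EC-/- and 224 ± 31.3 CPM in WT (SD, n = 3 each). Pdha1, the catalytic subunit of pyruvate dehydrogenase, was at 99.1 ± 4.55 CPM in GLUT1EC-/- and 90.5 ± 5.47 CPM in WT. Mdh1, the cytosolic malate dehydrogenase, was at 64.4 ± 13.6 CPM in GLUT1EC-/- and 62.5 ± 2.21 CPM in WT, and the row named Pgm1 at 65.4 ± 18.6 CPM in GLUT1EC-/- and 54.6 ± 1.91 CPM in WT. Of the gluconeogenesis enzymes among the neighbours, Fbp1, Fbp2 and Pck1 were too low to be tested, while Pck2 and Pcx were tested. Pck2 overlapped between the groups, at 18.52 to 38.42 CPM in GLUT1EC-/- and 29.39 to 34.98 CPM in WT. Pcx was higher in every GLUT1EC-/- library, at 47.6 to 52.5 CPM in GLUT1EC-/- against 41.3 to 42.2 CPM in WT. Its log2 fold change of 0.28 (SE 0.12, adjusted p = 0.316 by edgeR) did not pass.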

How the data were processed

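RNA from 6 libraries of MACS-sorted brain endothelial cells was made into stranded mRNA libraries (Illumina TruSeq) and sequenced from one end over 100 bases (NovaSeq), per the labels' protocols. The deposited values are raw counts per gene symbol, made by the authors with STAR and featureCounts on GRCm38, per the submitters' processing notes. Their versions, annotation and strand setting, and their handling of reads with several matches, are not given in the sources used here.

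Samples were grouped by genotype label. Counts of all 6 libraries were fitted in edgeR 4.0.16 (R 4.3.3) by quasi-likelihood, with a term for genotype alone. Scaling was by TMM, dispersion was robust, and filterByExpr kept genes with a count of 10 or more in enough libraries and a total of at least 15. P-values were adjusted by Benjamini and Hochberg's method over 14838 genes. Each standard error is the log2 fold change over the root of its F value. The fit was tested on simulated data. CPM are counts over library size times TMM factor. DESeq2 1.42.0 and limma 3.58.1 (voom) were alternatives, with other scalings, filters, covariates and each library left out in turn. P-values measure the spread between these animals.

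All 33 members were found, 32 by symbol and Pkm by an older one. Lengths are unions of GENCODE M21 exons, and repeated windows of 100 bases were sought in its transcripts, since no genome was used here. Exons of 10 members overlap a coding gene on the other strand and those of 2, Pfkfb2 and Pgls, one on the same strand, so these counts are uncertain. The members, lists and tests were chosen with earlier results of these data known. All members were named. Of the neighbours, where none passed, the 4 most abundant and the enzymes of gluconeogenesis were named. Paralogs were named with over 1% of a step or no counts. Shares, markers and medians were described without a test. Some paralogs are not reported here.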

Additional observations from a re-analysis of the deposited data

How the results depend on the processing

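None of the 33 enzymes passed under any alternative except that without GLUT1EC-/- 2, where Pfkl and H6pd passed, so the number passing ranged from 0 to 2 with single libraries left out. The number of genes passing among all tested was 194, against 847 with DESeq2, 14 with the animal number series as a term, 113 with sex as a term and 429 at an adjusted p under 0.1. It ranged from 0 (without WT 1) to 862 (without GLUT1EC-/- 2) with single libraries left out, with 1 without WT 2, 5 without WT 3 and 32 without GLUT1EC-/- 1, and the cause was not tested. The median log2 fold change of the enzymes ranged from -0.14 to 0.04 over these.

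Of the 33 fold changes, 20 kept their sign under all 16 alternatives, or 15 for Hkdc1, which fell under the filter of 1 CPM. Signs turned for the other 13. With the number series as a term they were 0.11 for Hk2, 0.071 for Ldha and -0.023 for Ldhb. With library size alone they were -0.0092 for Gpi1, -0.039 for Pfkfb2, -0.029 for Ldhb and -0.0057 for Pgd. Pfkfb2 and Ldhb were at -0.0032 and -0.0051 without a filter and at -0.029 and -0.026 with upper-quartile scaling. With single libraries left out the log2 fold change ranged from -0.14 to 0.039 for Hk1, -0.22 to 0.10 for Hk2, -0.40 to 0.61 for Hk3, -0.24 to 0.13 for G6pc3, -0.0026 to 0.083 for Gpi1, -0.26 to 0.079 for Pfkp, -0.059 to 0.046 for Pfkfb2, -0.021 to 0.62 for Eno2, -0.026 to 0.15 for Pkm, -0.14 to 0.068 for Ldha, -0.14 to 0.21 for Ldhb, -0.046 to 0.088 for Pgd and -0.40 to 0.075 for Rpe.

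Isoform shares moved with the length used. The Hk1 share, 93.1% over the 6 libraries, was 95.9% with the longest transcript or no length and 96.3% with the principal transcript or its windows found once. That of Pgm1, 66.3%, was 55.9% with no length and 72% with windows of the principal transcript. That of Pfkl, 40.2%, was 48.7% with the longest transcript. That of Aldoa, 97.8%, was 98.6% with the longest and principal transcripts and 98.7% with its windows. That of Eno1, 68.7%, was 82.6% with the longest or principal transcript, 84.2% with no length and 91.9% with windows of the principal transcript. That of Ldha, 78.8%, was 84.9%, 88.7%, 85.2% and 84.0% with the longest transcript, no length, the principal transcript and its windows. That of G6pdx, 71.1%, was 59.2% with no length. Ratios moved as well: with windows of the principal transcript Eno1 exceeded Eno2 by 46.7 to 77.0 times and Aldoa exceeded Aldoc by 62.7 to 96.5 times, and with no length Ldha exceeded Ldhb by 5.82 to 9.98 times. Lengths from the principal transcript were added after the data had been seen. No paired analysis was possible because the labels used here do not give the litter of each animal, and the replicate numbers are in accession order. The fit with the number series as a term is given above.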
